A study of Mus musculus with 11 samples.

Results

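Expression of 10 class I antigen presentation genes was followed in mammary tumors with and without *Pcbp1*: the heavy chains *H2-K1*, *H2-D1*, *H2-Q4*, *H2-Q6*, *H2-Q7*, *H2-T10*, *H2-T22*, *H2-T23* and *H2-M3*, and *B2m*, which encodes their shared light chain. They were chosen by gene name, with earlier results of these data known. They are 10 of the 26283 genes in the deposited tables, and all 10 passed the filter on low counts. A class I molecule is a membrane-bound heavy chain paired with beta-2 microglobulin around a short peptide, usually cut from proteins inside the cell. The classical heavy chains are highly polymorphic, are carried by nearly all nucleated cells and are read by CD8 T cells. The non-classical ones vary less, and several serve receptors of natural killer cells or of unconventional T cells. Interferons raise transcription of the family in many cell types, and class I on tumor cells is what lets cytotoxic T cells recognize them.

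The samples were 11 bulk mammary tumors taken from C57BL/6 mice aged 18 weeks, 6 PyMT *Pcbp1*–/– and 5 PyMT *Pcbp1*+/+. Both genotypes carried MMTV-PyMT, a viral oncogene driven by a mammary tumor virus promoter, and MMTV-Cre, which deletes floxed alleles in mammary epithelium. The first group had the *Pcbp1*(fl/fl) alleles and the second the unfloxed *Pcbp1*(wt/wt) alleles, so that other cells of a *Pcbp1*–/– tumor could still carry an intact gene. The deposited values are estimated counts per gene and CPM, in which each count is scaled to the sum of its tumor. Counts per tumor summed to between 10543200 and 14092200, and 3 counts, the limit that a count of 0 allows, corresponded to between 0.213 and 0.285 CPM. Such limits cover counting error only.

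The targeted gene was examined first. *Pcbp1* (ENSMUSG00000051695.6, chromosome 6 of GRCm38, 86524492 to 86526321) had a lowest, median and highest value of 15.4, 20.9 and 33.6 CPM in PyMT *Pcbp1*–/– tumors. In PyMT *Pcbp1*+/+ replicates 1 to 5 it had 268, 271, 225, 219.5 and 259 CPM. The groups did not overlap, and every library followed its label. The log2 fold change, always given for PyMT *Pcbp1*–/– against PyMT *Pcbp1*+/+, was -3.43 (edgeR, standard error, SE, 0.19, adjusted p = 4.72e-06, lower in 6 of 6 tumors). Adjusted p-values come from edgeR's quasi-likelihood test with Benjamini-Hochberg adjustment over 19232 genes and are called at 0.05. They measure the spread between samples labelled as separate tumors, and the labels do not say whether each came from a different animal.

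All 10 members had a negative log2 fold change, with a median of -0.82, where the median over all genes tested was -0.000. Without PyMT *Pcbp1*+/+ replicate 3 the median was -0.54, and *H2-T10* (0.14) and *H2-M3* (0.081) were positive. Only *H2-Q7* fell past the threshold (edgeR, 1 of 10 members, against 1.66% of all genes tested). At an unadjusted p under 0.05, 8 of 10 members were lower, against 10.53% of all genes tested, and none was higher at either threshold with edgeR, DESeq2 or limma-voom, the last 2 of which called 2.51% and 5.03% of genes tested higher. None of the 10 members had every PyMT *Pcbp1*–/– tumor below every PyMT *Pcbp1*+/+ tumor, which held for 2.02% of all genes tested. The number called depended on the tool, since DESeq2 called 6 of 10 members (3.77% of genes tested were lower with it) and limma-voom with sample quality weights called 8 of 10 (6.19%), while limma on log2(CPM + 1) called 0 (1.19%), with 7 of 10 lower at an unadjusted p under 0.05 (9.27%). *H2-T10* and *H2-M3* were called by none of these tools. In a bulk tumor, fewer cells of a type and less RNA per cell cannot be told apart.

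**Figure D1:**
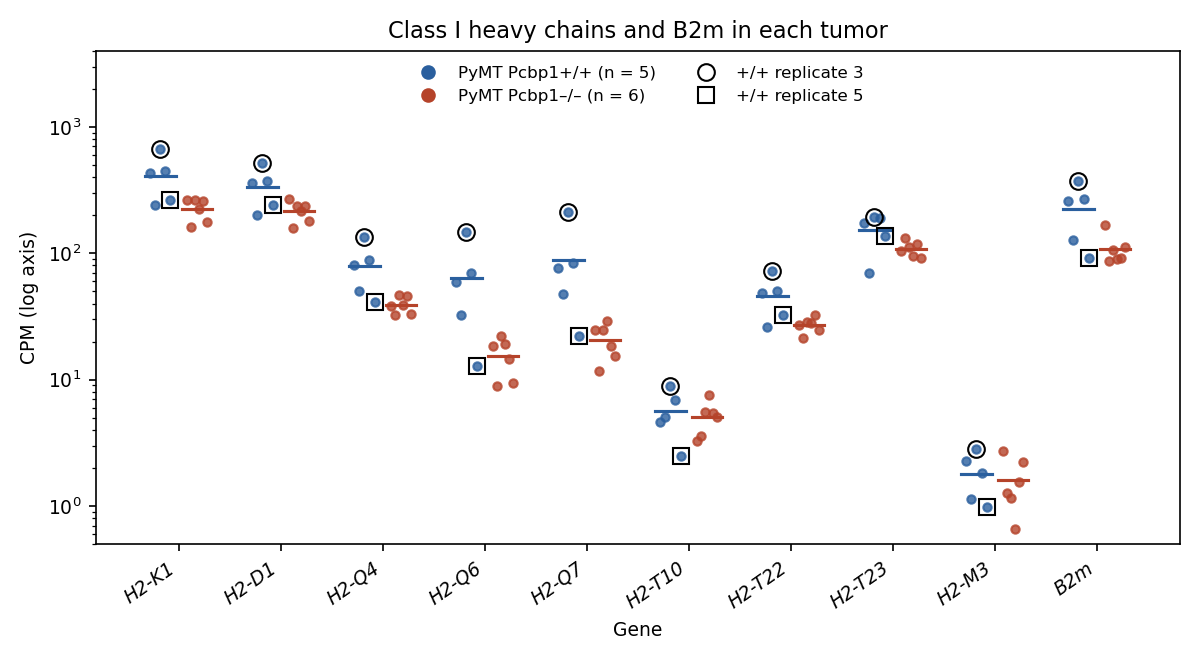
CPM of the 10 members in each tumor on a log axis, with PyMT *Pcbp1*+/+ (n = 5) in blue and PyMT *Pcbp1*–/– (n = 6) in red; a point is 1 tumor and a line the group mean. PyMT *Pcbp1*+/+ replicate 3 (circle) was the highest of 11 tumors for all 10 members, and replicate 5 (square) lay at or below the highest PyMT *Pcbp1*–/– tumor for 9 of them.

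The classical heavy chains, *H2-K1* and *H2-D1*, present peptides to CD8 T cells and also engage inhibitory receptors of natural killer cells. *H2-K1* (ENSMUSG00000061232.15, chromosome 17, minus strand, 33996017 to 34000333) had a lowest, median and highest value of 161, 242 and 262 CPM in PyMT *Pcbp1*–/– tumors, with 224 ± 45.3 CPM (SD, n = 6). In PyMT *Pcbp1*+/+ replicates 1 to 5 it had 429.8, 240.0, 667, 449 and 262 CPM, with 409 ± 172 CPM (SD, n = 5). Replicates 1, 3 and 4 lay above every PyMT *Pcbp1*–/– tumor, while replicates 2 and 5 lay within their range. The log2 fold change of *H2-K1* was -0.88 (edgeR, SE 0.26, adjusted p = 0.0969), so that this difference did not pass the adjustment.

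*H2-D1* (ENSMUSG00000073411.11, chromosome 17, plus strand, 35262730 to 35267499) had, like *H2-K1*, replicates 1, 3 and 4 of PyMT *Pcbp1*+/+ above every PyMT *Pcbp1*–/– tumor. Its lowest, median and highest values were 159, 224 and 267 CPM in PyMT *Pcbp1*–/– tumors, with 215 ± 39.6 CPM (SD, n = 6). PyMT *Pcbp1*+/+ replicates 1 to 5 had 359.8, 199, 513, 372 and 242 CPM, with 337 ± 123 CPM (SD, n = 5). The groups again overlapped through replicates 2 and 5 of the PyMT *Pcbp1*+/+ tumors. The log2 fold change of *H2-D1* was -0.66 (edgeR, SE 0.23, adjusted p = 0.149). Both classical genes summed to 439 ± 84 CPM in the 6 PyMT *Pcbp1*–/– tumors (SD) and to 747 ± 295 CPM in the 5 PyMT *Pcbp1*+/+ tumors (SD). Without PyMT *Pcbp1*+/+ replicate 3, the highest tumor, the log2 fold changes were -0.58 for *H2-K1* and -0.41 for *H2-D1*. *H2-D1* as a percentage of *H2-K1* ran from 89.9% to 102% in PyMT *Pcbp1*–/– tumors and from 76.9% to 92.5% in PyMT *Pcbp1*+/+ tumors. Of the PyMT *Pcbp1*+/+ tumors, only replicate 5 lay inside the PyMT *Pcbp1*–/– range. This percentage was not tested, and the split of reads between related genes is uncertain.

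The Q region holds a row of non-classical genes between *H2-D1* and the T region. *H2-Q6* and *H2-Q7* encode the Qa-2 antigen, a class I molecule that can be tethered to the membrane by a lipid anchor and is known to restrain tumor growth in mice. *H2-Q7* (ENSMUSG00000060550.15, chromosome 17, plus strand, 35439155 to 35443773) had a lowest, median and highest value of 11.8, 21.7 and 29.2 CPM in PyMT *Pcbp1*–/– tumors, with 20.8 ± 6.59 CPM (SD, n = 6). In PyMT *Pcbp1*+/+ replicates 1 to 5 it had 76.7, 47.2, 211, 84.4 and 22.1 CPM, with 88.3 ± 72.8 CPM (SD, n = 5). Replicates 1 to 4 lay above every PyMT *Pcbp1*–/– tumor, and replicate 5 lay below 3 of the 6. *H2-Q7* fell with a log2 fold change of -2.12 (edgeR, SE 0.47, adjusted p = 0.0396), or 4.33-fold. With limma on log2(CPM + 1) its log2 fold change was -1.73 (adjusted p = 0.072). Leaving out any of 9 tumors in turn ended the edgeR call. The adjusted p from edgeR was 0.0651, 0.059, 0.0835, 0.0683, 0.0905 and 0.0797 without PyMT *Pcbp1*–/– replicates 1 to 6 in turn, and 0.0638, 0.0698 and 0.0833 without PyMT *Pcbp1*+/+ replicates 1, 3 and 4. Without replicate 3, the tumor with 211 CPM, the log2 fold change was -1.42, and without any other of these 9 tumors it stayed between -2.24 and -1.99.

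*H2-Q6* (ENSMUSG00000073409.12, chromosome 17, plus strand, 35424850 to 35430055), its neighbour, had a lowest, median and highest value of 8.85, 16.5 and 22.2 CPM in PyMT *Pcbp1*–/– tumors, with 15.5 ± 5.51 CPM (SD, n = 6). PyMT *Pcbp1*+/+ replicates 1 to 5 had 59, 32.2, 147, 69.3 and 12.9 CPM, with 64 ± 51.2 CPM (SD, n = 5). As for *H2-Q7*, only replicate 5 of the PyMT *Pcbp1*+/+ tumors fell in the range of the other group. The log2 fold change of *H2-Q6* was -2.07 (edgeR, SE 0.50, adjusted p = 0.0512), just outside the threshold. With the counts of *H2-Q6* and *H2-Q7* summed to 1 value per tumor, the log2 fold change was -2.10 (edgeR, SE 0.48, adjusted p = 0.0443).

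*H2-Q4* encodes a further non-classical heavy chain of the Q region (ENSMUSG00000035929.11, chromosome 17, plus strand, 35379617 to 35385290). It had a lowest, median and highest value of 32.7, 38.3 and 46.8 CPM in PyMT *Pcbp1*–/– tumors, with 39.2 ± 6.11 CPM (SD, n = 6), and 81.2, 50.1, 134, 87.6 and 40.9 CPM in replicates 1 to 5 of PyMT *Pcbp1*+/+, with 78.8 ± 36.8 CPM (SD, n = 5). Only replicate 5 lay below the highest PyMT *Pcbp1*–/– tumor. Its log2 fold change was -1.02 (edgeR, SE 0.27, adjusted p = 0.0681). An antisense gene on the minus strand overlaps the start of *H2-Q4*, with a mean of 5.38 CPM in PyMT *Pcbp1*–/– and 5.58 CPM in PyMT *Pcbp1*+/+ tumors; whether the counting used the strand of the reads is not given in the sources used here.

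The level of the Qa-2 genes relative to the classical pair also differed between tumors. *H2-Q6* and *H2-Q7* together amounted to between 6.48% and 11% of the summed CPM of *H2-K1* and *H2-D1* in PyMT *Pcbp1*–/– tumors. In PyMT *Pcbp1*+/+ replicates 1 to 5 this ratio was 17.2%, 18.1%, 30.3%, 18.7% and 6.94%. Replicate 2, which lay within the PyMT *Pcbp1*–/– range for both classical genes, thus lay above that range for the ratio, and replicate 5 lay inside it. The ratio was not tested.

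The T region genes have more specialized partners. *H2-T23* encodes Qa-1, which displays peptides from the leaders of other class I chains to the CD94/NKG2 receptors of natural killer and CD8 T cells. *H2-T23* (ENSMUSG00000067212.8, chromosome 17, minus strand, 36029773 to 36032855) had a lowest, median and highest value of 91.8, 108 and 132 CPM in PyMT *Pcbp1*–/– tumors and 173, 69.3, 193, 189 and 137 CPM in replicates 1 to 5 of PyMT *Pcbp1*+/+. Here replicate 2, not replicate 5, was the low PyMT *Pcbp1*+/+ tumor, and it lay below every PyMT *Pcbp1*–/– tumor. The means were 109 ± 15.1 CPM (SD, n = 6) and 152 ± 51.4 CPM (SD, n = 5), with a log2 fold change of -0.49 (edgeR, SE 0.22, adjusted p = 0.248).

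*H2-T22* and *H2-T10* encode closely related chains that bind no peptide and are ligands of a subset of gamma-delta T cells. *H2-T22* (ENSMUSG00000056116.18, chromosome 17, minus strand, 36037128 to 36042747) had a lowest, median and highest value of 21.3, 27.7 and 32.6 CPM in PyMT *Pcbp1*–/– tumors and 48.1, 25.9, 72.2, 50.5 and 32.4 CPM in replicates 1 to 5 of PyMT *Pcbp1*+/+. Replicates 2 and 5 lay within the PyMT *Pcbp1*–/– range and the other PyMT *Pcbp1*+/+ tumors above it. The means were 27 ± 3.84 CPM (SD, n = 6) and 45.8 ± 18 CPM (SD, n = 5), with a log2 fold change of -0.77 (edgeR, SE 0.23, adjusted p = 0.108), and -0.50 without PyMT *Pcbp1*+/+ replicate 3. *H2-T10* (ENSMUSG00000079491.9, chromosome 17, minus strand, 36115876 to 36121465) is annotated in the files as a polymorphic pseudogene and lies inside *H2-T9*, a gene of the same strand. It had a lowest, median and highest value of 3.25, 5.28 and 7.53 CPM in PyMT *Pcbp1*–/– tumors and 4.66, 5.03, 8.94, 6.93 and 2.5 CPM in replicates 1 to 5 of PyMT *Pcbp1*+/+. The groups overlapped almost completely, with 4 of 5 PyMT *Pcbp1*+/+ tumors at or below the highest PyMT *Pcbp1*–/– tumor. Its log2 fold change was -0.15 (edgeR, SE 0.31, adjusted p = 0.837), and it moved with single tumors. It was -0.23, 0.14, -0.08 and -0.32 without PyMT *Pcbp1*+/+ replicates 1, 3, 4 and 5, and -0.04, -0.06 and -0.30 without PyMT *Pcbp1*–/– replicates 1, 2 and 4.

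*H2-M3* presents peptides that begin with N-formylmethionine, as bacterial and mitochondrial proteins do. It lies farthest from the classical genes (ENSMUSG00000016206.6, chromosome 17, plus strand, 37270220 to 37274484) and had the lowest level of the 10 members. Its lowest, median and highest values were 0.658, 1.42 and 2.73 CPM in PyMT *Pcbp1*–/– tumors, and PyMT *Pcbp1*+/+ replicates 1 to 5 had 2.28, 1.14, 2.8, 1.82 and 0.982 CPM. The groups spread over nearly the same range. For *H2-M3* the log2 fold change was -0.18 (edgeR, SE 0.38, adjusted p = 0.835), and it was -0.71 with limma-voom (adjusted p = 0.209). In edgeR it was -0.11, -0.31, 0.081 and -0.32 without PyMT *Pcbp1*+/+ replicates 1, 2, 3 and 5, and -0.39, -0.11, -0.10, -0.02 and -0.31 without PyMT *Pcbp1*–/– replicates 1, 2, 3, 4 and 6.

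The light chain, *B2m*, is encoded on another chromosome, and heavy chains that fail to pair with it are mostly retained inside the cell. *B2m* (ENSMUSG00000060802.8, chromosome 2, plus strand, 122147686 to 122153083) had a lowest, median and highest value of 87.4, 98.8 and 166 CPM in PyMT *Pcbp1*–/– tumors, with 109 ± 29.8 CPM (SD, n = 6). In PyMT *Pcbp1*+/+ replicates 1 to 5 it had 261, 127, 373, 269 and 92 CPM, with 224 ± 114 CPM (SD, n = 5). Replicates 2 and 5 of the PyMT *Pcbp1*+/+ tumors lay below the highest PyMT *Pcbp1*–/– tumor, replicate 1, which stood apart from its group. The log2 fold change of *B2m* was -1.05 (edgeR, SE 0.32, adjusted p = 0.108). Relative to the summed classical genes, *B2m* ran from 18.5% to 31.4% in PyMT *Pcbp1*–/– tumors and from 18.2% to 33% in PyMT *Pcbp1*+/+ tumors, ranges that nearly coincide.

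For most members, the same tumors were high and low. PyMT *Pcbp1*+/+ replicate 3 was the highest of 11 tumors for 10 of 10 members, and replicates 1 and 4 each lay above every PyMT *Pcbp1*–/– tumor for 8. Replicate 5 lay at or below the highest PyMT *Pcbp1*–/– tumor for 9 members and replicate 2 for 7. Among PyMT *Pcbp1*–/– tumors, replicate 2 was the lowest of 11 for 7 members. For *H2-T23*, however, this tumor was the highest of its group, with 132 CPM. The spread between tumors was accordingly wider in PyMT *Pcbp1*+/+ tumors, where the coefficient of variation ran from 33.7% for *H2-T23* to 82.5% for *H2-Q7*. In PyMT *Pcbp1*–/– tumors it ran from 13.9% for *H2-T23* to 47.4% for *H2-M3*, the only member more variable there than in PyMT *Pcbp1*+/+ tumors. Without PyMT *Pcbp1*+/+ replicate 2, 6 of 10 members were called lower (edgeR, 1.82% of genes tested), and without replicate 5, 4 of 10 (1.65%). Leaving out any of the other 9 tumors left 0 members called by edgeR (from 0.755% to 2.05% of genes tested were lower), with 6 to 8 of 10 lower at an unadjusted p under 0.05 (from 8.58% to 11.6%).

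Levels of different genes were compared per kilobase of merged exon length. In PyMT *Pcbp1*+/+ tumors, *H2-K1* (129 ± 54.1 CPM per kilobase, SD, n = 5), *H2-D1* (113 ± 41.2) and *B2m* (106 ± 54.3) were the highest and did not differ beyond their spread. *H2-T23* followed with 44.4 ± 15, then *H2-Q4* with 22.4 (coefficient of variation 46.8%), *H2-Q7* with 20.7 ± 17.1, *H2-Q6* with 18.7 ± 15 and *H2-T22* with 13.4 ± 5.26 CPM per kilobase, neighbours within their spread. *H2-T10* with 1.64 ± 0.712 and *H2-M3* with 0.991 ± 0.421 CPM per kilobase were the lowest. The order in PyMT *Pcbp1*–/– tumors was similar at the top, with *H2-D1* at 71.8 ± 13.2, *H2-K1* at 70.5 ± 14.2 and *B2m* at 51.7 ± 14.2 CPM per kilobase (SD, n = 6). Below *H2-T23* and *H2-Q4*, however, *H2-T22* (7.9 ± 1.12 CPM per kilobase) stood above *H2-Q7* (4.86 ± 1.54) and *H2-Q6* (4.52 ± 1.61) there. PyMT *Pcbp1*+/+ replicate 5 had this order as well, with *H2-Q7* at 5.19 and *H2-Q6* at 3.76. Both lay below the lowest *H2-T22* value of its group, 7.56. The PyMT *Pcbp1*+/+ means of *H2-Q7* and *H2-Q6* include 49.4 and 42.8 in replicate 3.

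**Figure D2:**
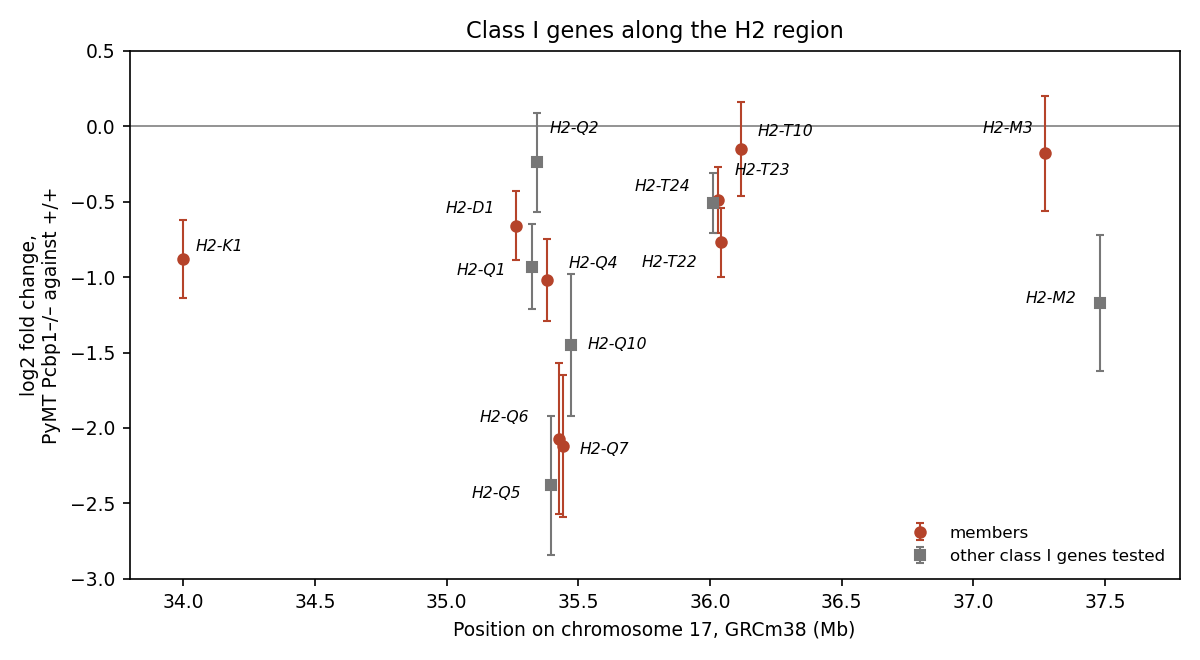
Log2 fold change of PyMT *Pcbp1*–/– (n = 6) against PyMT *Pcbp1*+/+ (n = 5) tumors from edgeR, with its standard error as bars, at the midpoint of each class I gene on chromosome 17 of GRCm38; members are red circles and the other class I genes tested are grey squares. *H2-Q5*, *H2-Q6* and *H2-Q7* lie next to each other with log2 fold changes of -2.38, -2.07 and -2.12, while *H2-T10* and *H2-M3* lie close to 0. *H2-Q5* is annotated as a polymorphic pseudogene and shares sequence with *H2-Q6* and *H2-Q7*.

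Class I genes arose by repeated duplication, so that a read can match more than 1 of them, and the deposited counts were searched for signs of this. A count further than 0.001 from a whole number is a sign that a read was divided. Such counts were found in 11 of 11 tumors for *H2-Q4*, in 8 for *H2-K1*, in 7 for *H2-T23*, in 3 for *H2-D1*, in 1 each for *H2-Q7* and *H2-T22*, and in none for *H2-Q6*, *H2-T10*, *H2-M3* and *B2m*. How many reads were divided cannot be read from such counts. Among genes with a mean of at least 1000 counts, as *H2-K1*, *H2-D1*, *H2-T23* and *B2m* have, 62% had a count that was not whole in some tumor, against 30.6% of genes between 100 and 1000 counts. The share was 18.3% between 10 and 100 counts, where *H2-T10* and *H2-M3* lie. Whole counts do not show that a read had 1 possible origin, because a read can also be given to a single gene or dropped.

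The transcripts themselves share sequence. Of the distinct 50-base stretches in the transcripts of a member, another gene also held 33.8% for *H2-T10*, 30.1% for *H2-T22*, 30% for *H2-Q6*, 26.9% for *H2-Q4* and 24.6% for *H2-Q7*. For *H2-T10* and *H2-T22* most of this was shared with each other, and for *H2-Q6* the largest share, 12.9%, was with *H2-Q7*. The classical genes and *H2-T23* shared less, with 11.3% for *H2-K1*, 12.6% for *H2-D1* and 13.1% for *H2-T23*. At 100 bases, the shared part was 9.85% for *H2-Q7*, 9.05% for *H2-Q6* and 8.13% for *H2-Q4*. *H2-M3* shared 0.385% at 50 bases and *B2m* none. How reads were split between relatives is therefore uncertain for every heavy chain, most by shared sequence for *H2-Q4*, *H2-Q6*, *H2-Q7*, *H2-T10* and *H2-T22* and least for *H2-M3*, while *B2m* shared no stretch.

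Of 41 other class I and class I-like genes listed, 22 had a row and 15 were tested; 1 fell and 1 rose (1.66% of all genes tested were lower and 0.608% higher), and the median log2 fold change was -0.24. With edgeR 8 had an unadjusted p under 0.05, 5 lower and 3 higher, against 18.7% of all genes tested in either direction. DESeq2 called 1 lower and 2 higher (3.77% and 2.51% of all genes tested), and limma-voom 2 lower and 1 higher (6.19% and 5.03%). *H2-Q5*, which lies between *H2-Q4* and *H2-Q6*, had a lowest, median and highest value of 1.42, 2.49 and 2.9 CPM in PyMT *Pcbp1*–/– tumors and ran from 3.39 to 28.7 CPM in the PyMT *Pcbp1*+/+ tumors. The groups did not overlap, and replicates 3 and 5 were again the highest and lowest PyMT *Pcbp1*+/+ tumors. *H2-Q5* fell with a log2 fold change of -2.38 (edgeR, SE 0.46, adjusted p = 0.0212). *Ulbp1*, a ligand of the activating receptor NKG2D and a distant relative of the heavy chains, had between 5.47 and 11.5 CPM in PyMT *Pcbp1*–/– tumors and 2.83, 1.71, 3.15, 3.55 and 1.34 CPM in replicates 1 to 5 of PyMT *Pcbp1*+/+. It rose with a log2 fold change of 1.62 (edgeR, SE 0.27, adjusted p = 0.00886), without overlap, which held upward for 1.27% of genes tested.

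Peptides reach class I molecules through the immunoproteasome and its activator, the TAP transporter and a set of chaperones. Of the 13 genes listed for this supply and loading, 3 fell and none rose with edgeR or DESeq2 (1.66% and 3.77% of all genes tested were lower), and 4 fell and none rose with limma-voom (6.19%). An unadjusted p under 0.05 with edgeR was reached by 6, all lower (10.53%), 12 had a negative log2 fold change, and the median was -0.44. *Tap1*, a subunit of the transporter, had 31.1 ± 4.2 CPM in the 6 PyMT *Pcbp1*–/– tumors (SD) and 64.8 ± 24.5 CPM in the 5 PyMT *Pcbp1*+/+ tumors (SD), with a log2 fold change of -1.06 (edgeR, SE 0.23, adjusted p = 0.0325). *Tap2*, its partner, fell with a log2 fold change of -0.68 (edgeR, SE 0.15, adjusted p = 0.0325). *Psme1*, a subunit of the proteasome activator, fell with a log2 fold change of -0.48 (edgeR, SE 0.10, adjusted p = 0.0312). PyMT *Pcbp1*+/+ replicate 5 had the lowest value of its group for all 3 genes, although for *Psme1* the groups did not overlap.

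Transcription of class I genes is driven by NLRC5 with the RFX and NFY complexes, by interferon-activated factors and by NF-kappa B. Of the 15 genes listed, 2 fell and none rose with edgeR (1.66% of all genes tested were lower), and the median log2 fold change was -0.12. With edgeR 7 had an unadjusted p under 0.05, 6 lower and 1 higher, against 18.7% of all genes tested in either direction. DESeq2 and limma-voom each called 4 lower (3.77% and 6.19% of all genes tested) and 1 higher (2.51% and 5.03%). *Stat2* fell with a log2 fold change of -1.42 (edgeR, SE 0.24, adjusted p = 0.0112) and *Irf9* with one of -0.85 (edgeR, SE 0.17, adjusted p = 0.0254); both encode proteins that act downstream of the type I interferon receptor. *Nlrc5*, the class I transactivator, had a log2 fold change of -0.53 (edgeR, SE 0.37, adjusted p = 0.465). Its lowest, median and highest values were 12.7, 25 and 36.5 CPM in PyMT *Pcbp1*–/– tumors, and PyMT *Pcbp1*+/+ replicates 1 to 5 had 39.4, 21.5, 71.7, 35.1 and 15.3 CPM, so that replicate 3 was again the highest and replicate 5 the lowest of its group.

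A list of receptors of class I and related genes held 16 genes, of which 6 were tested. Not every gene listed is known to bind class I. None of the 6 was called by edgeR, DESeq2 or limma-voom or had an unadjusted p under 0.05 with edgeR. Their median log2 fold change was 0.04. The most abundant were *Lilrb4a* (log2 fold change -0.13, adjusted p = 0.754 from edgeR) and *Pirb* (0.22, adjusted p = 0.694 from edgeR), inhibitory receptors of myeloid cells. Class II genes, which present peptides from outside the cell to CD4 T cells, had 7 of 11 listed genes tested and a median of -0.52; none was called by edgeR or DESeq2 or had an unadjusted p under 0.05 with edgeR, and limma-voom called 1 lower (6.19% of all genes tested). *Cd74*, the class II invariant chain, had a log2 fold change of -0.52 (edgeR, SE 0.32, adjusted p = 0.416) and *H2-Eb1* one of -0.61 (edgeR, SE 0.33, adjusted p = 0.341).

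Likeness to the members was measured as Pearson's r between a gene's log2 CPM and the mean of the members' standardized log2 CPM, over 11 tumors and 13658 protein-coding genes, as a description. The values share the libraries and the genotype difference. The most alike were *Gbp2* (r = 0.945), *Mycbp2* (0.935), *Cd274* (0.932), *Gbp6* (0.932), *Psmb9* (0.924) and *Irgm2* (0.923). With each genotype's mean subtracted, they were *Trafd1* (r = 0.952), *Mycbp2* (0.943), *Nlrc5* (0.924), *Cd274* (0.922), *Psmb9* (0.916) and *Gimap1* (0.912). *Gbp2*, *Gbp6* and *Irgm2* encode interferon-inducible GTPases, *Psmb9* a subunit of the immunoproteasome, and *Cd274* the checkpoint ligand PD-L1. Of the members, which are part of the profile, *H2-Q4* (0.979) and *H2-K1* (0.977) were nearest to it across tumors and *H2-M3* (0.585) and *H2-T10* (0.586) farthest. Of these 9 genes, *Cd274* (-1.26), *Irgm2* (-1.41) and *Trafd1* (-0.77) fell, with adjusted p of 0.0399, 0.0264 and 0.0137 from edgeR (1.66% of all genes tested were lower). Genes picked for likeness across tumors share the genotype difference of the profile, so such calls are partly built into the choice. The other 6 did not pass, with log2 fold changes from -1.75 for *Gbp6* (edgeR, adjusted p = 0.0664) to -0.11 for *Mycbp2* (0.522) and -0.00 for *Gimap1* (0.998).

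Because class I expression differs between cell types, marker genes of other cells were set beside the members. Of the 8 marker lists, no gene tested was called by edgeR, DESeq2 or limma-voom. At an unadjusted p under 0.05 with edgeR, reached by 18.7% of all genes tested in either direction, there was 1 gene, the basal keratin *Krt14* (log2 fold change -2.42, adjusted p = 0.16 from edgeR). It had 47.6, 277, 10.9, 20.3 and 4.64 CPM in replicates 1 to 5 of PyMT *Pcbp1*+/+ and 3.82 to 21.9 CPM in PyMT *Pcbp1*–/– tumors. Only PyMT *Pcbp1*+/+ replicates 1 and 2 thus lay above every PyMT *Pcbp1*–/– tumor, and replicate 2 stood far above replicate 1. The basal list as a whole did not follow *Krt14*. Among its 7 genes, 4 changed downward, and the middle value was -0.04. The 12 T and NK cell markers, 5 of them tested, summed to between 5.95 and 12.3 CPM in PyMT *Pcbp1*–/– and between 5.25 and 15 CPM in PyMT *Pcbp1*+/+ tumors; *Cd8a* was the most abundant and *Cd3d* was at 0 in 5 of 11 tumors. Macrophage and dendritic cell markers, 10 of 12 tested and led by *C1qb*, summed to 265 ± 71.9 CPM in the 6 PyMT *Pcbp1*–/– tumors and 231 ± 66.5 CPM in the 5 PyMT *Pcbp1*+/+ tumors (SD, as below), and B cell markers, of which 3 of 6 had a row, none was tested and *Cd22* led, to 2.05 ± 1.12 and 1.91 ± 0.883 CPM. Endothelial markers, led by *Cdh5*, summed to 71.5 ± 15.4 and 82.4 ± 16.3 CPM, and fibroblast markers, led by *Col1a1*, to 662 ± 191 and 546 ± 158 CPM. The luminal epithelial markers of the labelled tissue, led by *Cdh1*, summed to 1995 ± 425 and 1994 ± 296 CPM, and basal markers, led by *Oxtr*, to 319 ± 104 and 376 ± 276 CPM.

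In some tumors these sums were high or low together with members, and in others they were not. Adipocyte markers, 5 of 6 tested and led by *Fabp4*, summed to 58.2 CPM in PyMT *Pcbp1*+/+ replicate 3, the tumor highest for every member, and to at most 28 CPM, in PyMT *Pcbp1*–/– replicate 1, in the other tumors. Macrophage and dendritic cell markers in PyMT *Pcbp1*+/+ replicates 1 to 5 summed to 266, 182, 308, 254 and 144 CPM, with replicates 3 and 5 at the ends, as for *B2m*, and T and NK cell markers to 13.3, 7.3, 11, 15 and 5.25 CPM. Both were thus lowest in replicate 5, which was also the lowest of its group for 6 of 10 members. This tumor was the lowest of its group for endothelial (57.5 CPM), basal (93.9 CPM) and B cell (0.982 CPM) markers too. It was not the lowest for fibroblast, adipocyte or luminal markers. In PyMT *Pcbp1*–/– replicate 1, the tumor with 166 CPM of *B2m*, macrophage and dendritic cell markers summed to 387 CPM, the highest of 11 tumors. They summed to 279 CPM in PyMT *Pcbp1*–/– replicate 2, the lowest of 11 tumors for 7 members, and to 284 CPM in replicate 6, against 253, 189.7 and 196 CPM in replicates 3, 4 and 5. The part of these cells in the members' values was not tested.

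Promoter sequences were read for 9 of the 10 members, *H2-T10* having none in the table, from RefSeq on GRCm38.p6, as 250 bases before to 50 after the RefSeq start. RefSeq starts can differ from the deposited gene positions given above: the window of *H2-D1* lies inside the deposited gene, and the 250 bases of *H2-T22*, *H2-T23*, *H2-M3* and *B2m* reach into it. Motifs of known class I regulation were searched on both strands. The interferon-stimulated response element core was searched as GAAANNGAA, which 8.56% of 32851 promoters hold, and as GAANNGAAA, a form with 1 base fewer between its G bases, held by 7.52% and added after the sequences were seen. The kappa B core was searched as GGGNNTTCC (5.82%) and the X2 box core, part of the module that NLRC5 uses, as TGACG (20.8%). *H2-K1*, *H2-D1*, *H2-Q4*, *H2-Q6*, *H2-Q7* and *H2-M3* held GAANNGAAA, and *H2-T22*, *H2-T23* and *B2m* held GAAANNGAA. The kappa B core was found in *H2-K1*, *H2-D1*, *H2-Q4*, *H2-Q6* and *H2-Q7*, and the X2 core in 7 promoters, all but those of *H2-Q6* and *H2-T23*. These are matches of letters in a window and not shown to be bound in these tumors.

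The 250 bases before the start are shown for a classical gene, the member called by edgeR, a T region gene and the light chain. They let the arrangement be compared, with capitals marking the kappa B and interferon-stimulated response element matches. *H2-K1* is at chr17:34000334-34000583 on the minus strand, *H2-Q7* at chr17:35438905-35439154 on the plus strand, *H2-T22* at chr17:36042743-36042992 on the minus strand and *B2m* at chr2:122147437-122147686 on the plus strand; each reads 5′ to 3′ on the strand of its gene. In *H2-K1* the kappa B match began 125 bases and the response element match 104 bases before the start, and in *H2-Q7* 133 and 113 bases. RefSeq holds another start for *H2-K1*, not shown, from which the same matches lie 111 and 90 bases away. Of the motifs in capitals, *H2-T22* and *B2m* held only a response element match, 190 and 139 bases before the start. X2 core matches are not marked, and variants of the kappa B core with other letters were not searched.
H2-K1: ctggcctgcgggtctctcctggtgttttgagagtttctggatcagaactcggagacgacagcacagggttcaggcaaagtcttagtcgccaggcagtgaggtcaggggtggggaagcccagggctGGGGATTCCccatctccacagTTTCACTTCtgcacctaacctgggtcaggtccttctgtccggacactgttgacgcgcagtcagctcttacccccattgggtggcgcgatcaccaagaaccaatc
H2-Q7: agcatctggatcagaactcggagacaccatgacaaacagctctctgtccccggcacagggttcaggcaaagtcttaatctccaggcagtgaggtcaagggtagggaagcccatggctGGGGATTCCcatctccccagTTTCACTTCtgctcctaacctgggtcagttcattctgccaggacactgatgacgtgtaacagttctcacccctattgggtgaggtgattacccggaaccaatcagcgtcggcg
H2-T22: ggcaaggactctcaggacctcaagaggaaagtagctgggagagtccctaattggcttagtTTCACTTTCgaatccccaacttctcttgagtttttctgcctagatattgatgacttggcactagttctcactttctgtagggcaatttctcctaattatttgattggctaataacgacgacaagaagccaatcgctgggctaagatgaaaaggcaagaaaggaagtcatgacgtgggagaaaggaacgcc
B2m: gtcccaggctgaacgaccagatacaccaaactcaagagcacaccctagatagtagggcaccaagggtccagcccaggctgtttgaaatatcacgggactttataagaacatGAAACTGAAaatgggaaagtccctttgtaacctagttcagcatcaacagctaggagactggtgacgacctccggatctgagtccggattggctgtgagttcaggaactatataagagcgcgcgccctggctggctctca
*H2-K1* and *H2-Q7* share the order of the capitals, a kappa B match followed by a response element match.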

How the data were processed

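The authors took RNA with Trizol and made stranded poly(A) libraries, labelled as a single batch. NovaSeq read pairs were mapped by Bowtie2 to GRCm38, and the authors worked in Partek Flow. They deposited estimated counts per gene and CPM, each count divided by its column sum; the counting method and annotation version are not given in the sources used here. Between 15.3% and 16.7% of counts per tumor were not whole (further than 0.001 from a whole number). The estimated counts were rounded, then analysed in R 4.3.3 by edgeR 4.0.16: default low-count filter (19232 genes kept), TMM factors, quasi-likelihood test with genotype as the only term in 11 tumors, Benjamini-Hochberg adjustment. A standard error is the log2 fold change divided by the root of F. Deposited stop positions were taken 1 base earlier: of 4671 genes whose start matches RefSeq, the stop minus 1 equals the RefSeq end for 1460 and the stop itself for 93.

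The members and gene lists were chosen with earlier results of these data known. Named genes were, by a rule, the members, *Pcbp1*, up to 5 called genes of each list (otherwise the 2 most abundant), the most abundant marker of each cell type, and the 6 genes most like the members on each of 2 scales (log2 CPM, prior count 2); *Nlrc5* and *Psmb9* came in by likeness. *H2-T9*, in which *H2-T10* lies, and *Krt14* were named after their values were seen. Shared stretches and exon lengths came from GENCODE vM39, which is on another build, and no coordinates were taken from it. Alternatives were DESeq2 1.42.0, limma-voom with sample quality weights (limma 3.58.1), limma on log2(CPM + 1), other scalings and filters, unrounded counts, protein-coding genes only, *H2-Q6* and *H2-Q7* summed, the replicate number as a block, and each tumor left out. A form of the response element motif with closer G bases was added after seeing the data. The tests were tested on simulated data.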

Additional observations from a re-analysis of the deposited data

Results flagged for a closer look

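In each genotype, *Pcbp1* and the 10 members were searched for a tumor far from the rest of its group, in 22 groups of values. Chance gives about 1 in 20 such groups, or 1.1 here, and 1 was found: *B2m* had 166 CPM in PyMT *Pcbp1*–/– replicate 1, where the nearest tumor of that genotype had 113 CPM. The gap was 0.681 of the range of the group, above the critical value of 0.625 for 6 samples. Without this tumor the log2 fold change of *B2m* was -1.20 (adjusted p = 0.0862 from edgeR).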

How the results depend on the processing

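The log2 fold changes of the 10 members were computed under 11 alternatives other than leaving out a tumor and with each of 11 tumors left out, giving 219 values, of which 217 were negative. The exceptions were *H2-T10* (0.14) and *H2-M3* (0.081) without PyMT *Pcbp1*+/+ replicate 3. Without that tumor the values were -0.58 for *H2-K1*, -0.41 for *H2-D1*, -0.68 for *H2-Q4*, -1.43 for *H2-Q6*, -1.42 for *H2-Q7*, -0.50 for *H2-T22*, -0.35 for *H2-T23* and -0.73 for *B2m*. Farthest from 0 with a tumor left out were *H2-K1* (-1.02), *H2-D1* (-0.80), *H2-T22* (-0.92) and *H2-T23* (-0.68) without replicate 2 of the same genotype, *H2-Q4* (-1.17), *H2-Q6* (-2.33), *H2-Q7* (-2.36), *H2-T10* (-0.32) and *B2m* (-1.24) without its replicate 5, and *H2-M3* (-0.39) without PyMT *Pcbp1*–/– replicate 1. The median over the members stayed between -0.97 and -0.54. The number of members called lower was 1 with edgeR (1.66% of genes tested were lower), 6 with DESeq2 (3.77%) and 8 with limma-voom (6.19%). It was 0 with limma on log2(CPM + 1) (1.19%), where 7 were lower at an unadjusted p under 0.05 (9.27%). With each tumor left out, the number called by edgeR ran from 0 to 6 (from 0.755% to 2.05% of genes tested were lower). DESeq2 called *H2-K1* (-0.87), *H2-Q4* (-1.02), *H2-Q6* (-2.07), *H2-Q7* (-2.11), *H2-T22* (-0.77) and *B2m* (-1.04). The calls of limma-voom were *H2-K1* (-0.99), *H2-D1* (-0.78), *H2-Q4* (-1.12), *H2-Q6* (-2.01), *H2-Q7* (-2.03), *H2-T22* (-0.89), *H2-T23* (-0.69) and *B2m* (-1.28). *H2-Q6* and *H2-Q7* summed gave -2.10. *H2-M3*, not called, was -0.71 with limma-voom and -0.18 with edgeR. Over all genes, 319 were lower and 117 higher (26.8% of calls), against 723 and 482 with DESeq2 (40.0%) and 1190 and 968 with limma-voom (44.9%), and from 144 to 389 and from 41 to 187 with each tumor left out. Why the tools differ was not tested. The labels do not say whether the same replicate number in both genotypes pairs the tumors. Correlations of their deviations from the group means were 0.134, 0.0867, -0.079, -0.144 and 0.293. Of 5 tumors, 2 correlated best with their own number, which is too few tumors to decide. With the replicate block in the tumors numbered 1 to 5, 0 members were called by edgeR (0.622% of genes tested were lower). At an unadjusted p under 0.05 from edgeR, 7 of 10 members were lower (9.68% of genes tested). Over all genes, 118 were lower and 42 higher with the block. *H2-Q7* had -1.71 with an adjusted p of 0.0828 (edgeR) there and -1.73 with one of 0.072 with limma on log2(CPM + 1), in a range from 0.000265 to 0.0905 over all alternatives. *H2-T10* has no value among protein-coding genes only. Depth limits *H2-M3* most, with a mean of 20.2 counts per tumor.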
